A study of Homo sapiens with 3 samples.

Results

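This account covers 10 genes of epithelial protease inhibitors, SERPINB1, SERPINB3, SERPINB4, SERPINB5, SERPINB13, SPINK5, SPINT1, SLPI, PI3 and CSTA, in poly(A) RNA-seq of the human bladder cancer cell line 5637. All 10 were found by symbol among the 35851 rows of the deposited table. The 5637 cells were given siRNA that targets MYBL2, in the libraries siMYBL2-1 and siMYBL2-2, or a control siRNA, in the single library siNC. All libraries share the cell line, the label WT and the lipid-mediated transfection, and the study used the design to look for targets of MYBL2, which encodes a cell cycle transcription factor. The labels do not say whether siMYBL2-1 and siMYBL2-2 are different siRNA sequences, nor how long after transfection RNA was taken, nor whether the libraries came from separate cultures. The genes were chosen by name with their RPKM in these 3 libraries in view, so their values are given as a description and no test is attached to them.

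Protease inhibitors of stratified epithelia fall into families that block proteases in different ways. Serpins present a loop that the protease cuts and is then trapped on, whereas Kazal, Kunitz and WAP (whey acidic protein) domains and cystatins plug the active site tightly and reversibly. In skin and other lining epithelia they hold back leukocyte elastase, kallikreins, membrane-anchored serine proteases and lysosomal cathepsins, and some of them are built into the cornified envelope.

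Values are RPKM, which divide the reads of a gene by its exonic length and by the library total, as the authors deposited them. The RPKM steps gave back whole reads, of which each library held between 40259436 and 46177658. Ratios to siNC are plain ratios of RPKM with 95% exact conditional binomial intervals, which cover counting error only. Log2 differences are of log2(RPKM + 1), which understates the change of low genes, and both siMYBL2 libraries are set against the same siNC library. MYBL2, the targeted gene, was at 46.0 RPKM in siMYBL2-1 and 56.3 RPKM in siMYBL2-2, against 211 RPKM in siNC. The level was thus 21.8% and 26.7% of siNC. The epithelial markers KRT5, KRT7, KRT8, KRT17, KRT18, KRT19, EPCAM and CDH1 were all present in every library, with CDH1 the lowest at 36.2, 8.98 and 14.8 RPKM in siMYBL2-1, siMYBL2-2 and siNC. Of 7 markers of urothelial differentiation, UPK1A and UPK1B were listed at 0 in every library and UPK2, UPK3B and KRT20 were under 1 RPKM. GATA3 was at 2.26 and 1.24 times siNC (3.21 RPKM) in siMYBL2-1 and siMYBL2-2, and PPARG at 5.32 and 7.26 RPKM, against 6.03 RPKM in siNC. Of the leukocyte markers, CD68 was at 3.43 to 5.34 RPKM in a row of which only 14.2% of bases belong to no other gene, and each of the other 5 measured had at most 5 reads in a library.

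Of the 10 inhibitors, 7 were lower in both siMYBL2 libraries than in siNC. SERPINB5 was higher in both, and SERPINB1 and SPINT1 were higher in siMYBL2-1 and lower in siMYBL2-2. In siMYBL2-1, 7 of the 10 were lower than in siNC and all 7 were at least 2-fold lower on the log2(RPKM + 1) scale. Of the 13274 tested genes, those whose mean over the libraries reached 1 RPKM, 54.7% were lower in that library and 1.79% at least 2-fold lower. The other 3 inhibitors were higher there (45.3% of tested genes) and 0 were at least 2-fold higher (2.15%). In siMYBL2-2, 9 of the 10 were lower (52% of all tested genes) and 2, SERPINB3 and PI3, were at least 2-fold lower (0.912%) on the same scale. There 1 was higher (48%) and 0 at least 2-fold higher (0.422%). Counted over both libraries, 7 were lower in both (36.4% of all tested genes), 1 was above siNC in both (29.7%) and 2 had opposite signs (33.9%). The level of all 7 was lowest in siMYBL2-1 and highest in siNC (23% of tested genes). On the log2(RPKM + 1) scale SERPINB3 and PI3 were at least 2-fold lower in both libraries (0.407%), and 0 inhibitors were at least 2-fold higher in both (0.211%). By the plain ratio of RPKM, SERPINB4 was also at least 2-fold lower in both. These shares are given for scale, since the genes were named with the same values known and the ratios share siNC. The median log2 difference of the 10 was -1.37 in siMYBL2-1 and -0.67 in siMYBL2-2, beside -0.04 and -0.01 over all tested genes. In bulk RNA, fewer cells that make an inhibitor and less RNA per cell cannot be told apart.

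Summed over the 10 genes, the level was 157 RPKM in siMYBL2-1 and 180 RPKM in siMYBL2-2, against 294 RPKM in siNC, or 53.3% and 61.2% of siNC. SLPI and PI3 alone made up 53.3%, 59.5% and 68.8% of these sums. In siNC the order of the levels per length ran from SLPI and PI3, which lay close together, through SPINT1 and SERPINB3, also close together, to SERPINB5, SPINK5, SERPINB1, CSTA, SERPINB13 and SERPINB4. In siMYBL2-1 SPINT1 stood above PI3, and SERPINB3 lay with SPINK5 near 2 RPKM, below SERPINB1. The 3 lowest genes of siNC, CSTA, SERPINB13 and SERPINB4, were also the lowest of siMYBL2-1.

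**Figure D1:**
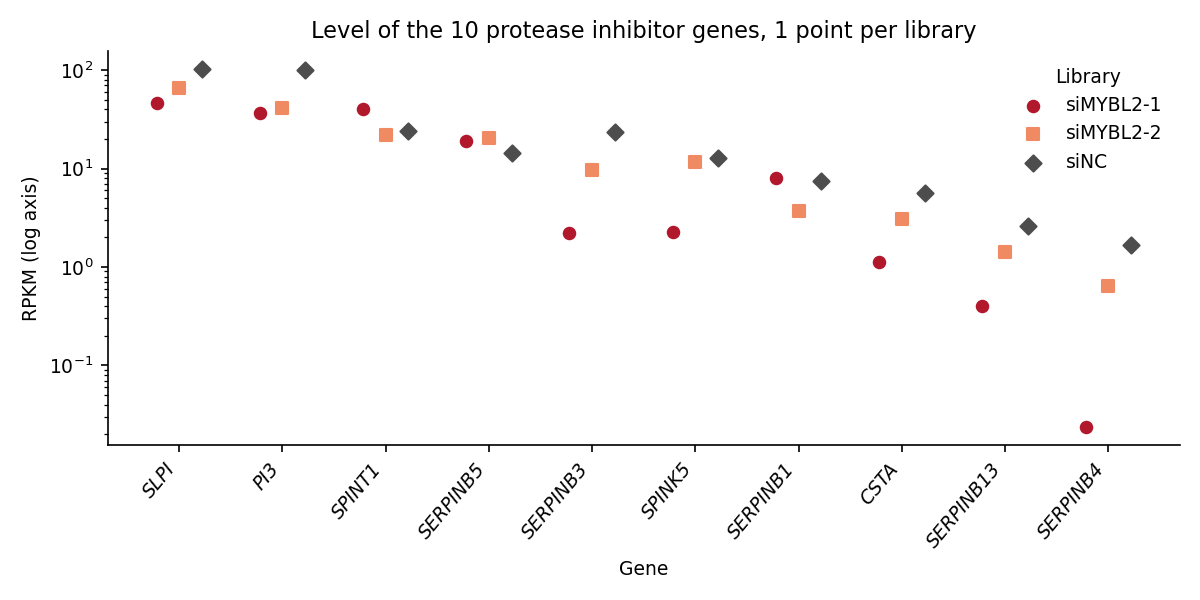
RPKM on a log axis of each of the 10 inhibitor genes, ordered by mean level, with 1 point each for siMYBL2-1, siMYBL2-2 and siNC. For SERPINB3, SPINK5, CSTA, SERPINB13 and SERPINB4 the siMYBL2-1 point lies far below the siNC point, whereas for SPINT1 it lies above, at 40.1 RPKM against 23.9 RPKM.

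SERPINB3 and SERPINB4 are neighbouring copies of the squamous cell carcinoma antigen genes, whose products inhibit different proteases, SERPINB3 papain-like cathepsins and SERPINB4 cathepsin G and mast cell chymase. SERPINB3 (chromosome 18, 63655197 to 63661963, minus strand, hg38) was at 2.22 RPKM in siMYBL2-1 (from 165 reads) and at 9.74 RPKM in siMYBL2-2 (from 799 reads), against 23.2 RPKM in siNC (from 1662 reads). Its siMYBL2 mean was 5.98 ± 5.32 RPKM (SD, n = 2), with both values below siNC. The gene was 10.5-fold lower in siMYBL2-1 (8.91 to 12.4) and 2.39-fold lower in siMYBL2-2 (2.19 to 2.60). At a log2 difference of -2.91 in siMYBL2-1 it had rank 1 from the lowest of all 13274 tested genes, and at -1.17 in siMYBL2-2 it had rank 63. The order of the libraries was the same for its copy.

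SERPINB4 (63637259 to 63644298, same chromosome and strand) was a low gene, at 0.0238 RPKM in siMYBL2-1 (from 2 reads) and at 0.635 RPKM in siMYBL2-2 (from 59 reads), against 1.68 RPKM in siNC (from 136 reads). The ratio to siNC was 0.0142 in siMYBL2-1 (0.00170 to 0.0521) and 0.378 in siMYBL2-2 (0.274 to 0.517). With a mean of 0.779 RPKM it was the only one of the 10 under the mean of 1 RPKM asked of tested genes. In siMYBL2-2 the intervals of the ratio of both copies overlapped, and in siMYBL2-1 the interval of SERPINB4 lay wholly below that of SERPINB3.

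The copies are shown here because reads that fall wholly on shared stretches could be exchanged between them. Their coding sequences in GENCODE 29, 1170 bases each, were identical at 95.2% of positions and differed at 56. Of all 50-base windows of the annotated SERPINB4 transcripts, 20.1% also occur in a SERPINB3 transcript. Of the 100-base windows 2.71% do, and of the 150-base windows 0%. Whether reads were exchanged in these libraries was not tested. The 60-base coding stretch with the most differences, positions 952 to 1011 from the start codon in both, holds 10 of them, in capitals.
SERPINB3: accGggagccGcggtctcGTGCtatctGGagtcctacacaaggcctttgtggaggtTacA
SERPINB4: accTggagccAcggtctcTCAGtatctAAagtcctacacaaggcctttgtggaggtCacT

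The promoter windows of the copies differ even less. In RefSeq's sequences of GRCh38.p14 the 250 bases before the RefSeq start of each gene differ at 3 positions, in capitals. That start lies 70 bases inside the deposited row for SERPINB3 and 42 bases inside it for SERPINB4, so the windows take in the first bases of those rows (SERPINB3, chr18:63661894-63662143; SERPINB4, chr18:63644257-63644506; both minus strand, 5′ to 3′).
SERPINB3: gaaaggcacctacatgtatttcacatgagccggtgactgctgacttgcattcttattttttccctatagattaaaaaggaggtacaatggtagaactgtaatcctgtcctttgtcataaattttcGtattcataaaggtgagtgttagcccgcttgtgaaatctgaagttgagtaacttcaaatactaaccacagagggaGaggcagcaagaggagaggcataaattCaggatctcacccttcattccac
SERPINB4: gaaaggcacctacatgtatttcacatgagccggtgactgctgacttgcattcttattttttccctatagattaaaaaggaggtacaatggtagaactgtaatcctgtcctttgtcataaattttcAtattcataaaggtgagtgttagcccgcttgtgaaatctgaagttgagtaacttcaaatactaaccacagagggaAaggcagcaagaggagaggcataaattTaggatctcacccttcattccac

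SERPINB3 also shares 34.9% of its exonic bases with the row of SERPINB11 on the opposite strand, and the strand setting of the authors' counter is not given, so reads in those 620 bases cannot be assigned to either gene. SERPINB11 itself had 7 reads in siMYBL2-1 and 40 in siMYBL2-2, against 83 in siNC.

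SERPINB13, a keratinocyte serpin that inhibits cathepsins K and L, lies beside this pair (63586989 to 63604639, plus strand). It was at 0.406 RPKM in siMYBL2-1 (from 77 reads) and at 1.42 RPKM in siMYBL2-2 (from 297 reads), against 2.59 RPKM in siNC (from 473 reads). That is 6.38-fold (5.01 to 8.23) and 1.83-fold (1.58 to 2.12) lower. Its exons share no base with another row of the table, so strand and overlap do not enter its values.

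SERPINB5 (maspin, a serpin that does not act as a classical protease inhibitor) was the only one of the 10 that was higher in both siMYBL2 libraries. It was at 19.0 RPKM in siMYBL2-1 (from 3128 reads) and at 20.6 RPKM in siMYBL2-2 (from 3746 reads), against 14.5 RPKM in siNC (from 2296 reads). The mean of 19.8 ± 1.14 RPKM (SD, n = 2) was 1.31 (1.24 to 1.38) and 1.42 (1.35 to 1.50) times siNC in the single libraries. The siMYBL2 values lay closer to each other than to siNC.

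SERPINB1, an inhibitor of neutrophil elastase, proteinase 3 and cathepsin G, is the only serpin of the 10 that lies outside chromosome 18 (chromosome 6, 2832332 to 2842006, minus strand). It was at 8.06 RPKM in siMYBL2-1 (from 1043 reads) and at 3.72 RPKM in siMYBL2-2 (from 532 reads), against 7.43 RPKM in siNC (from 925 reads). The ratio was 1.09 in siMYBL2-1 (0.993 to 1.19), an interval that holds 1, and 0.501 in siMYBL2-2 (0.450 to 0.558). Its level in siMYBL2-1 was 2.16 times that in siMYBL2-2 (1.95 to 2.41). Only siMYBL2-2 lay apart from siNC by more than the counting interval.

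Along chromosome 18 the clade B serpins form a cluster of 543 kb from SERPINB5 to SERPINB8, in which neighbouring blocks went opposite ways. SERPINB13, SERPINB4, SERPINB11 and SERPINB3 lie side by side and had a lower RPKM in both siMYBL2 libraries than in siNC. Of these, SERPINB11 had few reads, in a row that shares 620 bases with that of SERPINB3, so the 2 rows are not separate observations. SERPINB4 had 2 reads in siMYBL2-1. Farther along, SERPINB2, the plasminogen activator inhibitor of the cluster, was at 180 RPKM in siMYBL2-1 and 29.6 RPKM in siMYBL2-2, against 14.8 RPKM in siNC. It was 12.2-fold higher (11.6 to 12.8) and 2.00-fold higher (1.89 to 2.12). SERPINB10 was at 95.1 and 16.2 RPKM, against 7.37 RPKM, but its row shares exonic bases with that of SERPINB2 on the same strand, 19.9% of those of SERPINB2. SERPINB2 and SERPINB10 had the ranks 4 and 3 from the highest log2 difference in siMYBL2-1. The cluster thus holds the lowest tested gene of that library and 2 of its 4 highest, whose rows share bases.

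**Figure D2:**
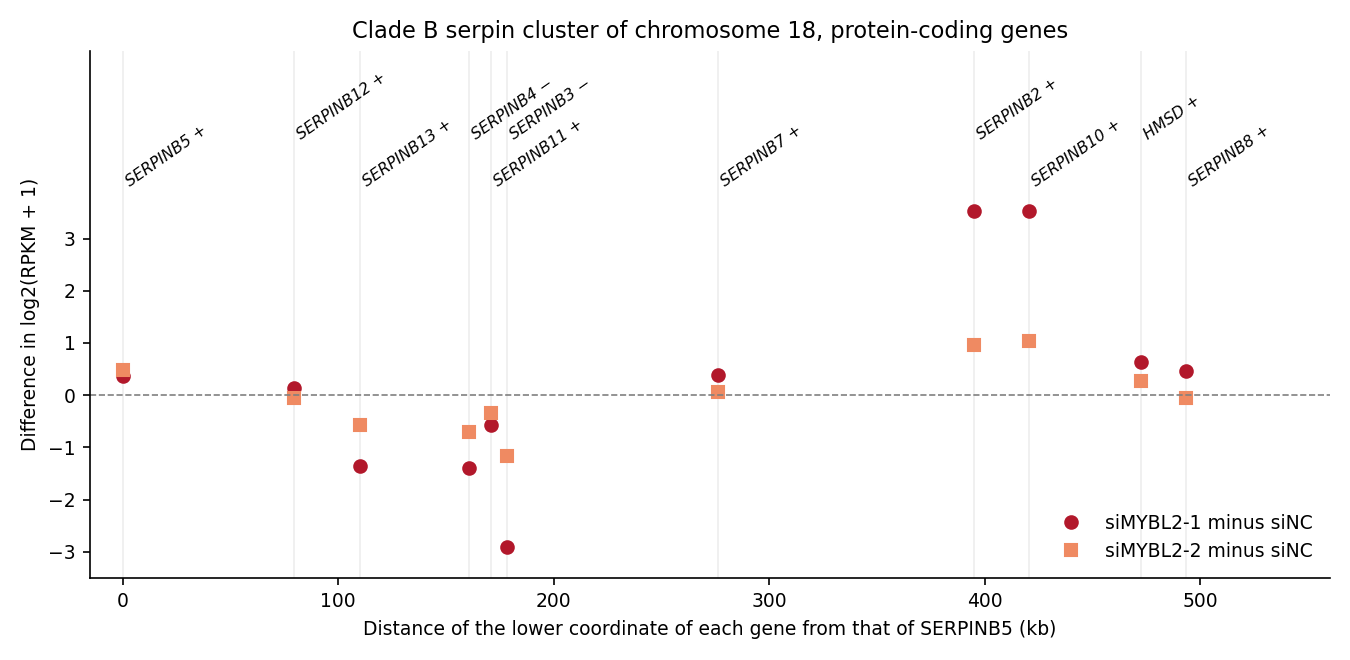
Difference in log2(RPKM + 1) to siNC for siMYBL2-1 (circles) and siMYBL2-2 (squares) of the protein-coding genes from SERPINB5 to SERPINB8, by distance in kb from SERPINB5, with the strand beside each name. SERPINB13, SERPINB4, SERPINB11 and SERPINB3 lie below 0 in both libraries, and SERPINB2 and SERPINB10 lie above 0 in both, at 3.52 in siMYBL2-1.

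SLPI and PI3 are WAP domain inhibitors that epithelia secrete against leukocyte elastase, and PI3 (elafin) is also cross-linked into the cornified envelope. SLPI (chromosome 20, 45252239 to 45254564, minus strand) was at 46.5 RPKM in siMYBL2-1 (from 1159 reads) and at 66.1 RPKM in siMYBL2-2 (from 1819 reads), against 103 RPKM in siNC (from 2479 reads). It was 2.22-fold (2.07 to 2.38) and 1.56-fold (1.47 to 1.66) lower. PI3 (45174876 to 45176544, plus strand) was at 37.0 RPKM in siMYBL2-1 (from 892 reads) and at 41.1 RPKM in siMYBL2-2 (from 1094 reads), against 99.1 RPKM in siNC (from 2302 reads). That is 2.68-fold (2.48 to 2.90) and 2.41-fold (2.24 to 2.60) lower.

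Of the 7 lower genes PI3 differed least between the siMYBL2 libraries, with a mean of 39.0 ± 2.89 RPKM (SD, n = 2), and its ranks from the lowest were 63 in siMYBL2-1 and 46 in siMYBL2-2. SLPI and PI3 lie 75.7 kb apart, and the PI3 gene starts 1458 kb beyond the end of MYBL2 on the same chromosome. Between them lies SEMG1, a seminal vesicle gene picked here once its level was known, at 1.15 and 2.33 RPKM in siMYBL2-1 and siMYBL2-2, against 3.81 RPKM in siNC. The next expressed gene, the syndecan gene SDC4, likewise picked, was at 25.3 and 9.43 RPKM, against 14.3 RPKM, and so lay above siNC in siMYBL2-1 and below it in siMYBL2-2. WFDC2, another WAP gene of this chromosome, was at 12.1 and 10.1 RPKM, against 15.1 RPKM in siNC, and the other 8 measured WAP genes were under 1 RPKM in every library.

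SPINK5 encodes LEKTI, a Kazal inhibitor of the kallikreins that shed the surface of the skin. SPINK5 (chromosome 5, 148025683 to 148137289, plus strand) was at 2.26 RPKM in siMYBL2-1 (from 414 reads) and at 11.6 RPKM in siMYBL2-2 (from 2349 reads), against 12.7 RPKM in siNC (from 2248 reads). It was 5.64-fold lower than siNC in siMYBL2-1 (5.08 to 6.28) and 1.10-fold lower in siMYBL2-2 (1.04 to 1.16), and 5.14-fold lower in siMYBL2-1 than in siMYBL2-2 (4.63 to 5.72). The low siMYBL2 mean of 6.94 ± 6.61 RPKM (SD, n = 2) thus rests on siMYBL2-1 alone, where the gene had rank 21 from the lowest. The 7 other Kazal inhibitor genes measured had at most 4 reads in any library, so SPINK5 was the only one measured above that.

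CSTA, cystatin A, inhibits cathepsins B, H and L and is a component of the cornified envelope. CSTA (chromosome 3, 122325244 to 122341972, plus strand) was at 1.11 RPKM in siMYBL2-1 (from 64 reads) and at 3.09 RPKM in siMYBL2-2 (from 196 reads), against 5.68 RPKM in siNC (from 314 reads). It was 5.10-fold (3.88 to 6.78) and 1.84-fold (1.53 to 2.21) lower. Its relative CSTB was more abundant and closer to siNC, at 45.3 and 32.2 RPKM in siMYBL2-1 and siMYBL2-2, against 43.8 RPKM in siNC. CST6, a secreted epithelial cystatin, went the other way on few reads, 97 and 38 in siMYBL2-1 and siMYBL2-2 against 14 in siNC, and CST3 was at 7.31 and 4.88 RPKM, against 5.77 RPKM.

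SPINT1 encodes HAI-1, the membrane Kunitz inhibitor of matriptase and of the activator of hepatocyte growth factor. SPINT1 (chromosome 15, 40844018 to 40858207, plus strand) was at 40.1 RPKM in siMYBL2-1 (from 5947 reads) and at 22.1 RPKM in siMYBL2-2 (from 3617 reads), against 23.9 RPKM in siNC (from 3401 reads). It was 1.68-fold higher than siNC in siMYBL2-1 (1.61 to 1.76) and 0.927 times siNC in siMYBL2-2 (0.885 to 0.972), so that it stood out in siMYBL2-1 alone. SPINT2, the related HAI-2 gene, was at 33.9 and 23.6 RPKM, against 24.1 RPKM in siNC. The Kunitz domain precursors APP (214 and 207 RPKM, against 253 RPKM) and APLP2 (161 and 135 RPKM, against 164 RPKM) and the coagulation inhibitor gene TFPI (0.550 and 0.794 times siNC) were below siNC in both. TFPI2, the remaining Kunitz gene measured, was at 2.22 and 3.87 RPKM, against 2.67 RPKM. It thus lay below siNC in siMYBL2-1 and above it in siMYBL2-2.

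**Figure D3:**
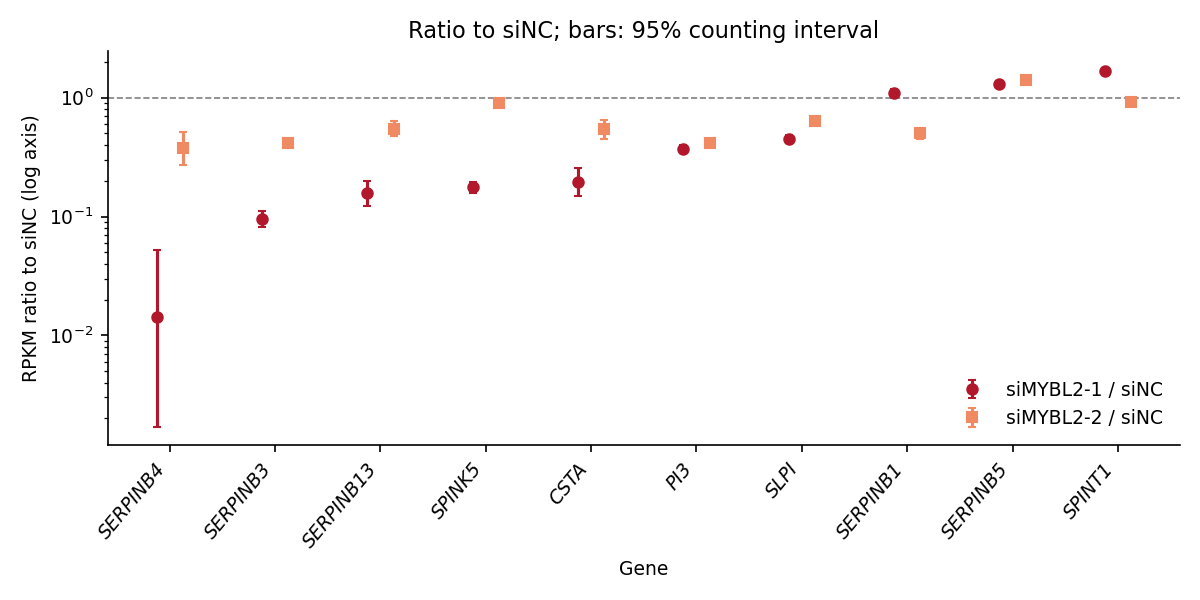
Ratio of RPKM to siNC on a log axis for siMYBL2-1 (circles) and siMYBL2-2 (squares) of each of the 10 inhibitor genes, ordered by the siMYBL2-1 ratio, with bars for the 95% counting interval and a dashed line at 1. The 7 genes from SERPINB4 to SLPI lie below 1 in both libraries, PI3 and SLPI with the smallest distance between libraries, and SPINK5 lies at 0.911 in siMYBL2-2.

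The proteases that these inhibitors are known for were measured in lists chosen with earlier results of these data known. Among 93 genes in 10 lists of further inhibitors and of target proteases, 83 were measured, and 31 of these reached the level asked of tested genes. By limma-trend, fitted over all 13274 tested genes with Benjamini-Hochberg adjustment, 0 of the 31 passed 0.05, the smallest adjusted p being 0.731. Before adjustment 6 lay under 0.05. Over all tested genes limma-trend called 1 gene higher (0.00753%), ANKRD1, and 0 lower (0%) with 625 p under 0.05 before adjustment, and limma-voom on the recovered reads called 0 of the 31. The fit has 1 residual degree of freedom and takes the single siNC library to vary like the siMYBL2 pair, so a missed threshold does not show that genes did not differ. On simulated data with a preset noise level, this fit called more unchanged genes than its threshold allows, which may also limit its calls. That noise was the same for every gene and was not estimated from these libraries, so how far this applies here is not known.

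Leukocyte and kallikrein targets were scarcely expressed. ELANE, PRTN3, AZU1 and CMA1, the neutrophil and mast cell proteases measured, had at most 2 reads in any library. The 8 measured kallikreins of the 11 in the list, among them the LEKTI targets KLK5 and KLK14, were all under 1 RPKM in every library, with KLK10 the highest at 0.590 and 0.382 RPKM in siMYBL2-1 and siMYBL2-2, against 0.612 RPKM in siNC. KLK7, another LEKTI target, is not analysed here.

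Genes of membrane proteolysis were present, and ST14, F2RL1 and MET were, like SPINT1, highest in siMYBL2-1. ST14, the matriptase gene, was at 71.9 and 35.8 RPKM in siMYBL2-1 and siMYBL2-2, against 33.2 RPKM in siNC, 2.16-fold (2.10 to 2.23) and 1.08-fold (1.04 to 1.12) higher. F2RL1, the protease-activated receptor that matriptase can cleave, was at 19.5 and 7.34 RPKM, against 4.84 RPKM. MET, the receptor of hepatocyte growth factor, was at 29.8 and 20.3 RPKM, against 13.5 RPKM, and TMPRSS11E, a protease of the same membrane-anchored class, was at 1.34 and 2.20 RPKM, against 1.61 RPKM. The remaining genes of this list above the minimum level lay above siNC in siMYBL2-1 and below it in siMYBL2-2. TMPRSS2 was at 2.13 and 1.32 RPKM, against 1.78 RPKM, and PRSS22 at 3.81 and 0.817 RPKM, against 2.06 RPKM. The median log2 difference of the 6 genes above that level, MET included, was 0.87 in siMYBL2-1 and 0.20 in siMYBL2-2. The other 8 of the list were under 1 RPKM in every library.

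The list of cathepsins and legumain holds the cysteine cathepsins that CSTA, SERPINB3 and SERPINB13 inhibit and also other lysosomal proteases, and 10 of its 12 genes were above the minimum level. CTSK, a target of SERPINB13, was not, at 0.672 and 0.539 RPKM in siMYBL2-1 and siMYBL2-2, against 0.961 RPKM in siNC. CTSL was at 28.5 and 47.9 RPKM in siMYBL2-1 and siMYBL2-2, against 49.4 RPKM in siNC, and CTSH at 11.0 and 12.1 RPKM, against 15.1 RPKM. CTSB, also a target of CSTA, was at 12.4 and 9.78 RPKM, against 12.6 RPKM. CTSD, an aspartic protease outside the reach of these inhibitors, was at 0.491 and 0.583 times siNC (32.5 RPKM), and 47.3% of its row is free of overlap with other rows. CTSS was at 1.35 and 0.748 RPKM, against 1.86 RPKM. Of the 10 genes above the minimum level, 6 were lower (54.7% of all tested genes) and 4 higher (45.3%) in siMYBL2-1. In siMYBL2-2, 9 were lower (52%) and 1 higher (48%). The median log2 difference of the 10, LGMN, CTSA and CTSD included, was -0.15 in siMYBL2-1 and -0.23 in siMYBL2-2.

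**Figure D4:**
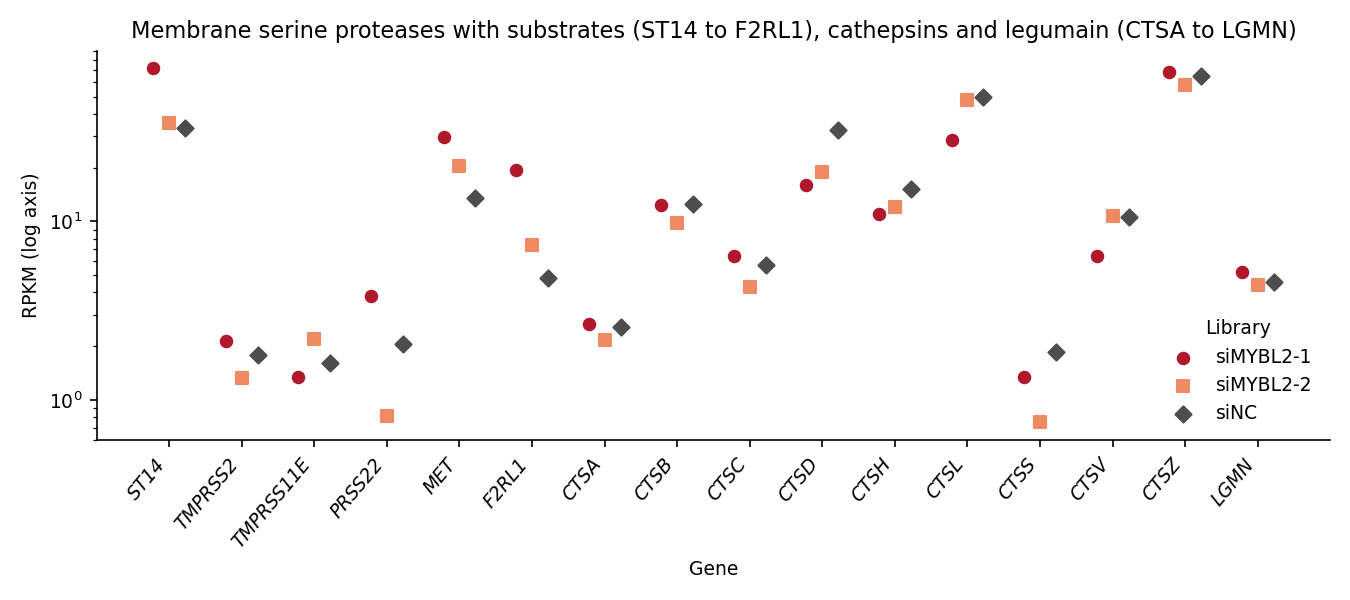
RPKM on a log axis of the membrane-anchored serine protease genes and their substrates (ST14 to F2RL1) and of the cathepsins and legumain (CTSA to LGMN) with a mean of at least 1 RPKM on average, 1 point each for siMYBL2-1, siMYBL2-2 and siNC. ST14, MET and F2RL1 are highest in siMYBL2-1, at 71.9, 29.8 and 19.5 RPKM, and CTSL is lowest there, at 28.5 RPKM.

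Other serpins gave no common direction. SERPINE2, which encodes the protease nexin, was at 2.41 and 3.76 RPKM in siMYBL2-1 and siMYBL2-2, against 5.07 RPKM in siNC, and SERPINH1, a collagen chaperone, at 12.4 and 14.7 RPKM, against 14.5 RPKM. The remaining 10 of 12 secreted serpins were under 1 RPKM in every library. SERPINB6 was at 8.59 and 5.20 RPKM, against 6.91 RPKM, and SERPINB8 at 6.21 and 4.02 RPKM, against 4.24 RPKM. Both thus lay above siNC in siMYBL2-1 and below it in siMYBL2-2.

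RefSeq promoter windows (GRCh38.p14, 250 bases before to 50 after the start) matched 7 of the 10 inhibitors by symbol, with 8 windows, and PI3, SLPI and CSTA have no entry used here. The RefSeq starts lie downstream of the first base of the deposited rows, by 30 to 459 bases for the windows of 6 genes and by 38.3 kb for SPINK5, so the windows overlap those rows or lie within them. The AP-1 letters TGANTCA, searched on both strands, occurred in SERPINB13, SERPINB5 and SPINT1, against 7.71% of 35116 windows of all genes. The middle letter N was left free. It is C in SERPINB13 and SPINT1 but A in SERPINB5, whose match is a looser one. These sites are shown because their genes went different ways, SERPINB13 lower and SERPINB5 higher in both siMYBL2 libraries, with capitals on the matched letters (SERPINB13, chr18:63587245-63587273; SERPINB5, chr18:63476801-63476829; SPINT1, chr15:40844031-40844059; all plus strand).
SERPINB13: tcgagagatgcTGACTCAgttggtctggg
SERPINB5: taacttcagccTGAATCAtttctttcaat
SPINT1: cccgacggcgcTGACTCAgtttcaccaga

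The TEAD letters GGAATG occurred in SERPINB3, SERPINB4 and SPINK5 (14.0% of all windows), in the near-identical pair at the same place, 8 bases before the start. The letters TTTGAA of the cell cycle homology region, through which MuvB complexes bind, occurred in SERPINB1, SERPINB3, SERPINB4 and SPINK5 (15.2%). The letters TAACNG, a form of the MYB site, occurred in 0 of the 8 windows (20.8%). The form CAACNG was not searched, so the 0 does not cover all MYB sites. The SERPINB13 stretch printed above holds CAGTTG, which reads CAACTG on the other strand. TATAAA occurred in SPINK5 and SERPINB13 (11.5%), in SPINK5 on both strands at overlapping positions. A match is a run of letters, and none of these windows was measured for binding.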

How the data were processed

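Poly(A) RNA-seq of 5637 cells was deposited as 1 table with 3 columns of RPKM, 1 per library (2 siMYBL2, 1 siNC). The authors deposited RPKM per kilobase of the exonic length given in the table and scaled to the reads assigned to its rows, per the file headers and the column sums. The submitters' processing notes name cutadapt 1.9, HISAT2 2.0.4, StringTie 1.3.4d and hg38, with no role or order. Which counter, strand setting and annotation were used is not given in the sources used here. Since each RPKM is relative to the library total, a higher level of some genes lowers the others.

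RPKM times length was a whole multiple of 1 step for 100% of values in each library (tolerance 0.001 reads), which gave the reads. Libraries held 41818861 (siMYBL2-1), 46177658 (siMYBL2-2) and 40259436 (siNC) reads. At these depths 3 reads on 1 kilobase are 0.0717, 0.0650 and 0.0745 RPKM. limma 3.58.1 (trend, R 4.3.3) was run on log2(RPKM + 1) for genes averaging at least 1 RPKM over the libraries, with Benjamini-Hochberg adjustment. It was tried on simulated data with a preset noise level. There it recovered large increases but called more unchanged genes than the threshold allows. Its adjusted p-values may thus be too small here, although that noise was not estimated from these libraries. With 2 libraries against 1, an exact permutation test cannot go below p = 0.333, and p-values measure only the spread between these libraries, which may be technical. Intervals are exact conditional binomial at 95% confidence. They reflect counting error alone and take reads as independent. Without molecular identifiers reads do not stand for independent molecules, so the intervals may be too narrow even for that error. Exonic overlap between rows, GENCODE 29 transcripts and RefSeq promoters were read in Python 3.11.15, with alignment by Biopython 1.88.

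The inhibitors and the lists were chosen with earlier results of these data known. Named are all 10 inhibitors, MYBL2, the cell type markers, up to 4 genes a list that average at least 1 RPKM and have the largest absolute mean log2 difference, and the 5 genes nearest to SERPINB3. Chromosomal neighbours, KLK10, CTSK, TFPI2, ANKRD1, the proteases at a few reads and others shown in plots were added after their values were seen. Alternatives were another pseudocount, other filters, other scalings, limma-voom and leaving out a siMYBL2 library.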

Additional observations from a re-analysis of the deposited data

How the results depend on the processing

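With 1 siNC library, no setting could leave the control out, and limma has no test when a siMYBL2 library is left out. No paired analysis was possible because siNC has 1 library, whose label carries no replicate number. The counts of inhibitors lower in both (7), higher in both (1) and in opposite directions (2) were the same with a pseudocount of 0.1 and under both other scalings. With a minimum of 5 RPKM, which removes SERPINB4, SERPINB13 and CSTA, 4 were lower in both. Leaving out either siMYBL2 library, 7 to 9 inhibitors were lower and 1 to 3 higher in the remaining one. The mean log2 difference of SERPINB1 turned from -0.37 to 0.10 without siMYBL2-2, and without siMYBL2-1 that of SPINT1 turned from 0.31 to -0.10 and that of SPINK5 moved from -1.10 to -0.12. With the pseudocount of 0.1 the mean log2 difference was -2.56 for SERPINB4 and -1.62 for SERPINB13, against -1.05 and -0.96. The other 28 of 30 values of single inhibitors under that pseudocount and both other scalings moved by no more than 1 SD of the siMYBL2 pair. By limma 1 gene was called higher, but 0 without a filter, with the 5 RPKM minimum, with median ratio scaling or without mitochondrial genes, and 3 by limma-voom. The number called lower was 0, and 7 by limma-voom. Genes at least 2-fold higher in both siMYBL2 libraries numbered 28, and 93 with the pseudocount of 0.1, 18 with the 5 RPKM minimum and 56 to 286 in a single library. Those at least 2-fold lower numbered 54, and 107, 28 and 121 to 237 under the same settings. Depth limits SERPINB4 most, at 2 reads in siMYBL2-1. SERPINB3 and SERPINB11 share bases whose strand cannot be assigned.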

Other observations

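SERPINB3, the inhibitor with the largest log2 difference in siMYBL2-1 among those of at least 1 RPKM, was compared by its pair of log2 differences with all other genes of at least 5 RPKM. The 5 nearest were SOX2, KRT13, RP5-1024C24.1 and a pair of rows named after H19. They were chosen by these values, over 3 libraries that share 1 control, so no test is attached. SOX2, a transcription factor of stem and squamous cells, lay nearest, at a distance of 0.143. It was at 6.75 RPKM in siMYBL2-1 (from 709 reads) and at 21.4 RPKM in siMYBL2-2 (from 2488 reads), against 53.3 RPKM in siNC (from 5388 reads). KRT13, a keratin of stratified mucosa with 83.7% of bases free of other rows, lay at a distance of 0.188 and was at 24.0 and 75.7 RPKM, against 165 RPKM in siNC. SERPINB3, SOX2 and KRT13 had the ranks 1, 3 and 4 from the lowest log2 difference in siMYBL2-1.

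IVL, which encodes the cornified envelope protein involucrin, did not share the direction of the envelope component genes PI3 and CSTA. IVL was at 169 RPKM in siMYBL2-1 and 79.3 RPKM in siMYBL2-2, against 66.8 RPKM in siNC. KRT10, a keratin of differentiating epidermis, was at 8.80 and 7.16 RPKM, against 7.69 RPKM, and KRT1, FLG and TGM1 were under 1 RPKM in every library. Whether these markers bear on the levels of the inhibitors was not tested.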
